A study of Mus musculus with 36 samples.

Results

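The loci of Meox1, Nod1, Pgd and Tuba3a were followed in the liver of 24 mice as examples of loci at which methylation of CpG dinucleotides differed between 2 inbred strains. The 4 genes, of 21418 protein-coding genes on the annotation, were selected on the measured difference in methylation between the strains, so that the values of the strains below, and the calls between them, describe the choice and support nothing further. Each locus was taken from 10000 bp upstream of the gene to 10000 bp past its end and divided into windows of 500 bp, of which 205 could be tested (of 1456902 on the autosomes). The animals were C57BL/6N (B6), C3H/HeN (C3), the offspring of B6 dams and C3 sires (B6C3F1) and the offspring of C3 dams and B6 sires (C3B6F1), with 3 males and 3 females of each. The B6 and C3 animals were the sires and dams of the crosses, mated at 10 weeks, so strain animals had bred and F1 animals had not. Families of a sire, a dam, a son and a daughter were sampled and all animals were killed at 20 weeks, and no animal was treated or carried a transgene. All values are of whole liver, a mixture of cell types dominated by hepatocytes.

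In mammals, cytosines of CpGs carry methyl groups at most sites of the genome, and unmethylated stretches mark active promoters and many enhancers. An F1 animal has a chromosome set from each strain. Where the methylation of a chromosome follows its own sequence, the F1 value lies midway between the strains, a value called the midparent here. Meox1 encodes a homeobox factor of the somites, and is not a gene of the adult hepatocyte. Nod1 encodes a cytoplasmic receptor for fragments of bacterial peptidoglycan, which signals to NF-kappaB. Pgd encodes 6-phosphogluconate dehydrogenase, the enzyme of the pentose phosphate pathway that yields NADPH and ribulose 5-phosphate. Tuba3a encodes an alpha-tubulin known for its expression in testis.

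A stretch of each locus is given first, those of Nod1 and Meox1 for their CpGs that differed between the strains and those of Pgd and Tuba3a for their SNVs, from mm9 (NCBI build 37) on the plus strand. All 4 genes lie on the minus strand. In the stretches of Nod1 and Meox1, capitals mark the CpGs at which methylation was counted.
Nod1, intron 1, chr6:54904785-54905084: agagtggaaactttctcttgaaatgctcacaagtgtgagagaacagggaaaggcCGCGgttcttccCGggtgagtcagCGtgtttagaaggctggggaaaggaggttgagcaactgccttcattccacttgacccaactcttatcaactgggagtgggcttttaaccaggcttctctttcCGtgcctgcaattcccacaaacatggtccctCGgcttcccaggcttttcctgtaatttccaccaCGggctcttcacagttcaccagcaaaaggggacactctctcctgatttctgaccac
Meox1, exon 2 and the adjoining intron 2, chr11:101740380-101740679: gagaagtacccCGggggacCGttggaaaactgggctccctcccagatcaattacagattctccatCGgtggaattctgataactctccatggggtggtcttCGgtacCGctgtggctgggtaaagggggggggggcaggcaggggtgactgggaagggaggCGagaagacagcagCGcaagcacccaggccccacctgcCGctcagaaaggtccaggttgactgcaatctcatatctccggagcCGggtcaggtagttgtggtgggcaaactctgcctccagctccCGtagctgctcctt
The Nod1 stretch holds 7 counted CpGs and no position at which the deposited list of single nucleotide variants (SNVs) gives C3 another base. The Meox1 stretch holds 10 counted CpGs and 1 SNV, G101740619T (mm9 base, position on chromosome 11, C3 base). This SNV removes a CpG in C3, and that CpG, left in lower case, was not counted.

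For Pgd and Tuba3a the mm9 sequence is set beside the C3 sequence, which is mm9 with the listed C3 bases put in, and capitals mark those bases.
Pgd, beyond the 3′ end, mm9 chr4:148523730-148523829: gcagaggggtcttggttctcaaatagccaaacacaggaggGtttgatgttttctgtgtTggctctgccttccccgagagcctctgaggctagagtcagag
Pgd, the same bases in C3: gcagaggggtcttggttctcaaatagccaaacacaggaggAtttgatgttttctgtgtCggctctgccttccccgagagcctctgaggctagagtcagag
Tuba3a, upstream of the start site, mm9 chr6:125236516-125236815: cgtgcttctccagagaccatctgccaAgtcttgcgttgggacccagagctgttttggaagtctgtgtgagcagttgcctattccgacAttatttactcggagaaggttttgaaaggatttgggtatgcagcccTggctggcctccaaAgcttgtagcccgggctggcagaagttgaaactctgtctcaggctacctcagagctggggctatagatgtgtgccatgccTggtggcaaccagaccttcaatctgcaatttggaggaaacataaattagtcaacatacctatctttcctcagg
Tuba3a, the same bases in C3: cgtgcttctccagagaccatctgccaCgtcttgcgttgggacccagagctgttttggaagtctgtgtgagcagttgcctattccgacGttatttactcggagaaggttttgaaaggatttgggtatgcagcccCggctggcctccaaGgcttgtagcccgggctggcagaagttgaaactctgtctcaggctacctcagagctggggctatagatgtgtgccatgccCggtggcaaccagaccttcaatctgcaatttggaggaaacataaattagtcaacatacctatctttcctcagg
The Pgd stretch holds the SNVs G148523770A and T148523788C, and its number of CpGs is 1 in mm9 and 2 in C3. The Tuba3a stretch holds 5 SNVs (A125236542C, A125236603G, T125236649C, A125236663G and T125236743C) and 5 CpGs in mm9 against 9 in C3. CpGs that are present in C3 alone were not in the table, since a CpG had to be present in mm9 and in both strains to be counted. Insertions and deletions are not part of the list.

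Most of each locus did not separate the strains by a large amount. Of the 205 windows, 10 were called between B6 and C3 (limma, adjusted p below 0.05 and at least 20 percentage points), against 0.494% of all windows tested, a share that bears only on how the loci were chosen. The calls were 1 of 67 windows at Nod1, 1 of 40 at Tuba3a, 5 of 49 at Meox1 and 3 of 49 at Pgd. C3 was higher in 7 and B6 in 3 of them. In each of the 10 the animals of the strains did not overlap, which the call itself favours. No share of windows without overlap is given for the autosomes, so this describes the 10 windows alone. The median difference in windows that were not called was 1.77 points at Nod1, 1.57 at Tuba3a, 4.59 at Meox1 and 2.56 at Pgd. The windows nearest to the 20-point minimum were chr4:148523001-148523500 at Pgd and chr11:101743001-101743500 at Meox1 on the inside (21.3 and 21.9 points), and 2 windows of Meox1 on the outside, at the start site and upstream of it (18.1 and 17.0 points).

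**Figure D1:**
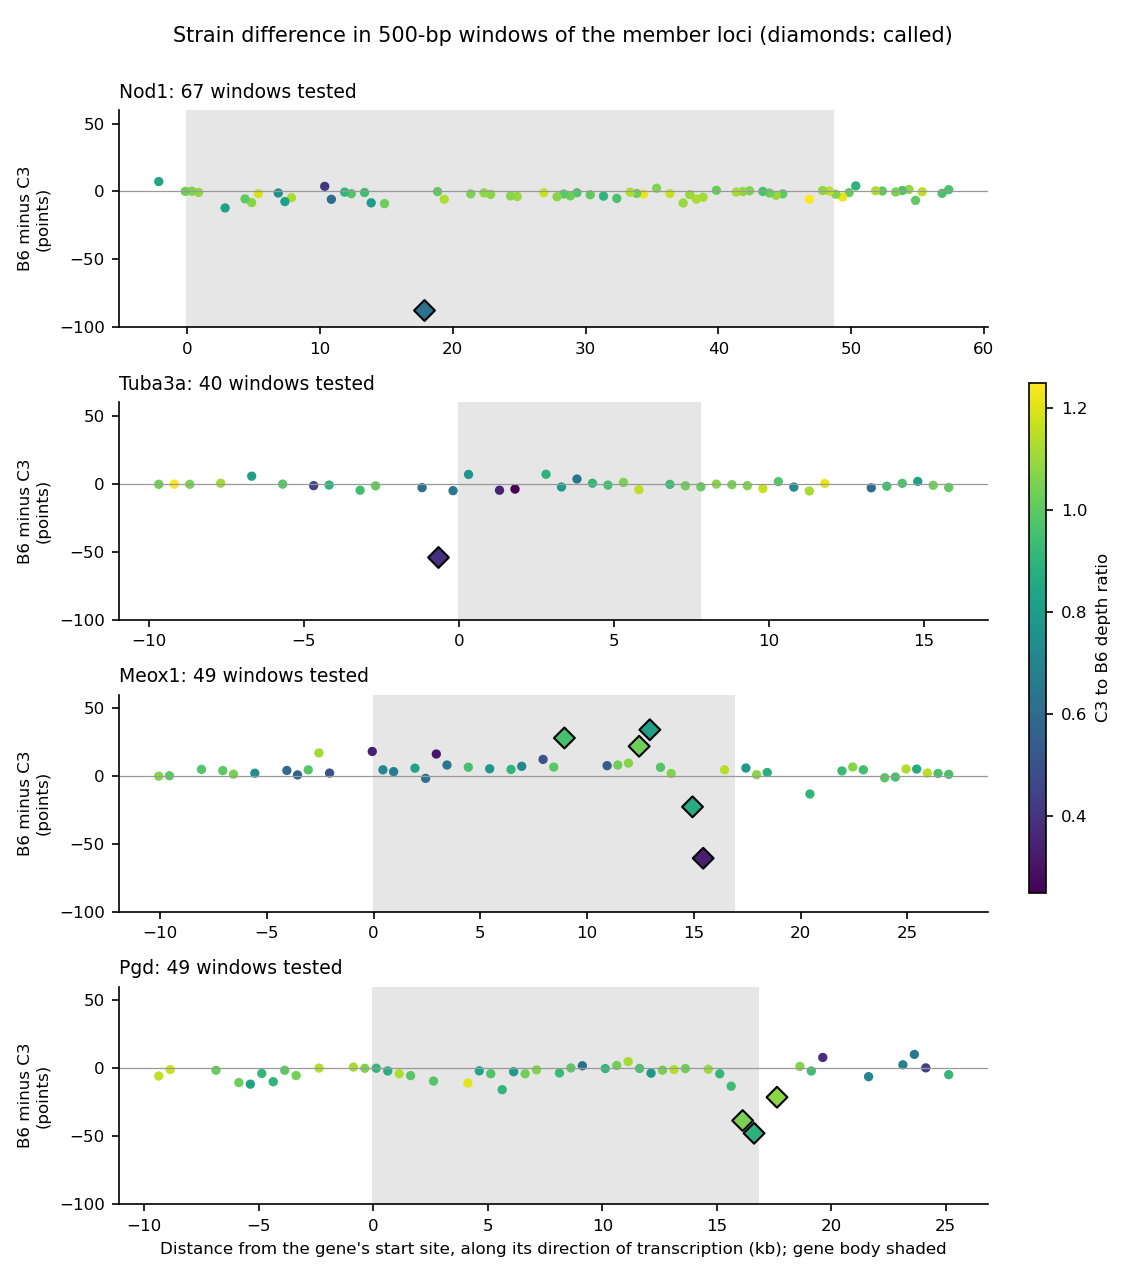
Difference in percent methylation between B6 and C3 (points, vertical axis) in each tested 500-bp window against its distance from the gene's start site (kb, horizontal axis), with the gene body shaded and the colour giving the ratio of C3 to B6 read depth. Diamonds are the 10 called windows: 1 inside Nod1, 1 just upstream of Tuba3a, 5 in the later part of Meox1 with both signs, and 3 at and beyond the end of Pgd.

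Within 500 bp of the start site, Nod1 had 0.974% ± 0.285 methylation in B6 and 0.930% ± 0.427 in C3, over 55 CpGs, and Pgd had 0.290% ± 0.225 and 0.279% ± 0.132 over 72 CpGs (SD, n = 6 per strain). Both promoters were unmethylated in all 24 animals, with a highest value of 1.99% at Nod1 and 0.749% at Pgd. The start site of Tuba3a was methylated, at 88.3% ± 1.64 in B6 and 93.3% ± 0.706 in C3 over 41 CpGs. That of Meox1 was intermediate, at 47.2% ± 3.48 in B6 and 36.7% ± 6.50 in C3 over 21 CpGs.

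Runs of CpGs in which at least 75% differed by 20 points or more between the strains were also joined into intervals. There were 8 such intervals at the loci, 5 with C3 higher and 3 with B6 higher, out of 4715 on the autosomes (2551 and 2164). Nod1 had 1, Meox1 4 and Pgd 3. Tuba3a had none. A CpG also had to reach 5 reads in 3 or more animals per strain, which left 5 of the 6 CpGs of its called window, and 3 of these differed by 20 points or more. Tuba3a is represented below by that window, a choice made after its values were seen. Methylation of an interval is the share of methylated reads over all its CpGs in an animal.

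**Figure D2:**
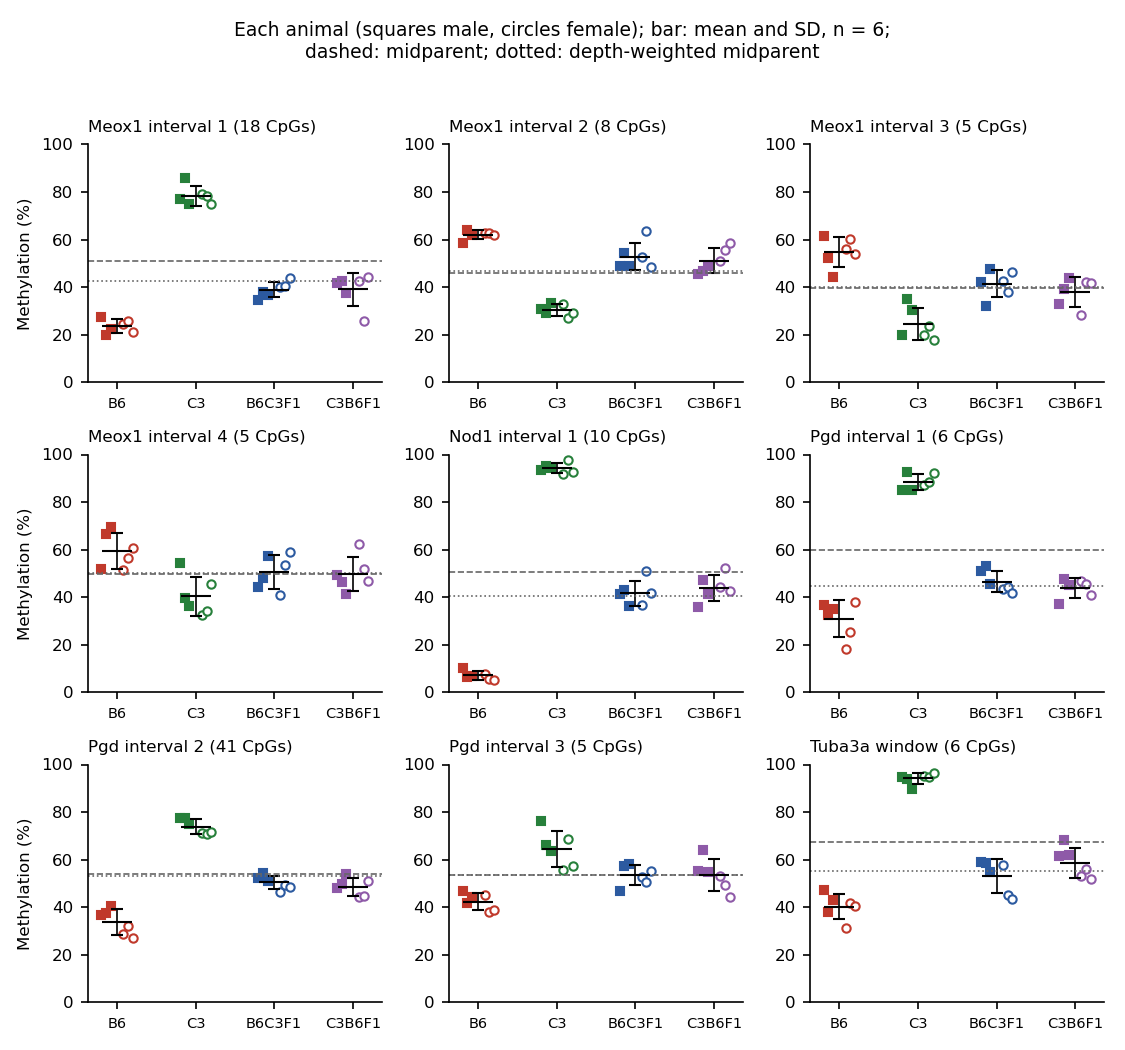
Percent methylation (vertical axis) of the 8 intervals and the Tuba3a window in each of the 24 animals, by strain or cross (horizontal axis); squares are males, circles females, bars the mean and SD of 6 animals. Dashed lines give the midparent and dotted lines the depth-weighted midparent, and F1 animals lie below the dashed line in Meox1 interval 1 and Pgd interval 1, where the dotted line is lower.

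Nod1 held the widest strain difference of the 4 loci. The interval chr6:54904687-54905349 lies in intron 1 of the 12-exon transcript, 16306 bp from the nearest annotated start site, which is that of another Nod1 transcript, and has 10 CpGs in 663 bp. B6 animals had 5.33% at the lowest, 6.85% at the median and 10.3% at the highest. C3 animals had 92.0%, 94.1% and 97.6%. The B6C3F1 animals (36.5%, 41.6% and 50.9%) and the C3B6F1 animals (36.0%, 43.5% and 52.4%) lay between, overlapping neither strain. The means were 7.14% ± 1.76 for B6, 94.3% ± 1.99 for C3, 41.7% ± 5.26 for B6C3F1 and 44.0% ± 5.57 for C3B6F1 (SD, n = 6). The nearest listed SNV was 489 bp away.

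The CpGs of the Nod1 interval were not read equally well in the strains. At chr6:54904687, the CpG at its edge, C3 had 1.12 times the depth of B6, scaled to the totals of the strains. The ratio was 0.729 at chr6:54904839, 0.338 at chr6:54904965 and 0.203 at chr6:54904996, and at chr6:54905029 it was 0.016, with 3 reads in the 6 C3 animals together. By chr6:54905322 it was back at 0.967. The strain difference was wide on both sides of the lowest C3 depth: B6 had 1.47% and C3 94.1% at chr6:54904839, and B6 had 2.76% and C3 95.0% at chr6:54905322. It was narrower at the edge CpG chr6:54904687, with 62.2% in B6 and 98.8% in C3. F1 methylation moved with the ratio, from 45.1% at chr6:54904839 to 26.2%, 18.7% and 7.73% at the following 3 positions of low depth and back to 47.2% at chr6:54905322. At chr6:54905029 an F1 animal had 17.2 reads on average and a B6 animal 34.2.

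**Figure D3:**
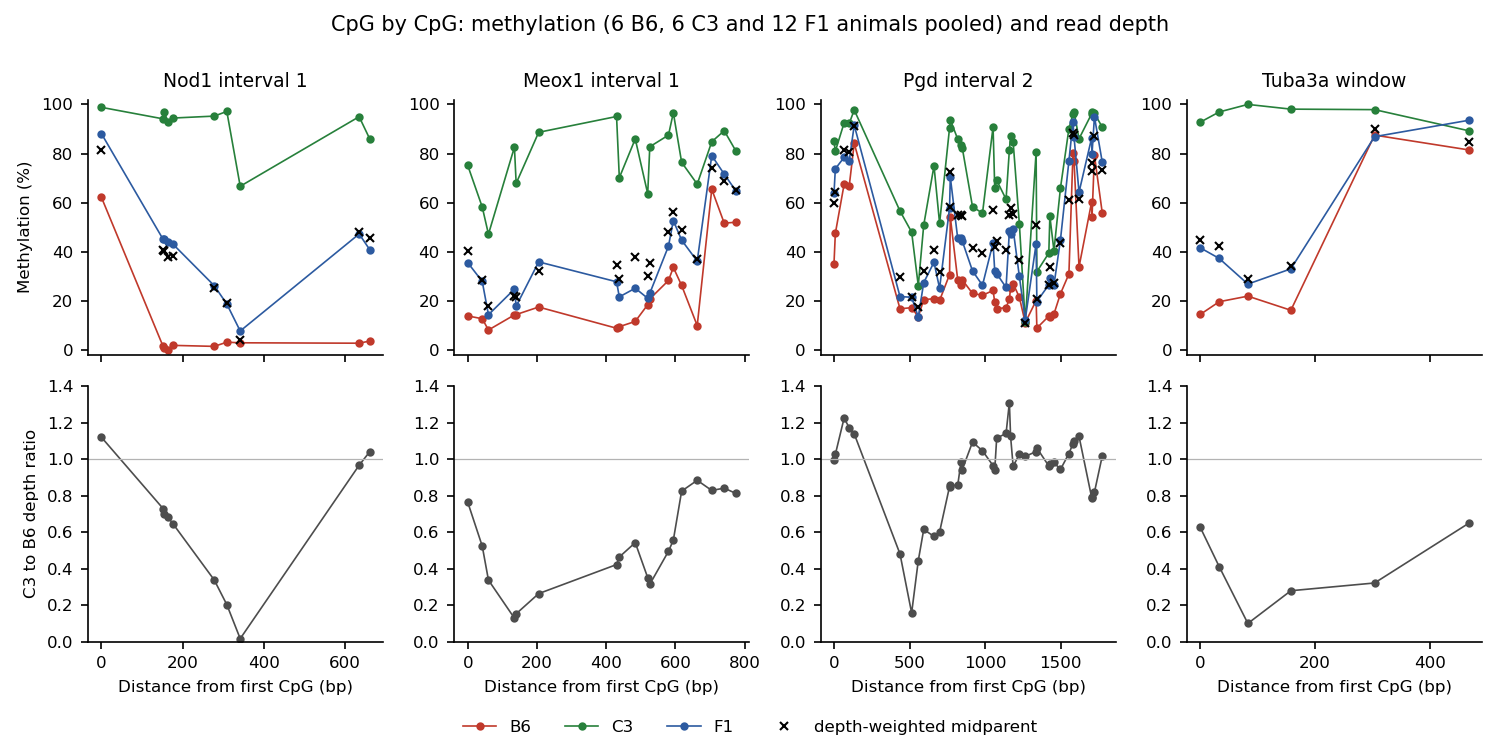
Upper panels show percent methylation at each CpG for B6, C3 and F1 animals pooled, with crosses at the depth-weighted midparent; lower panels show the ratio of C3 to B6 depth, both against distance from the first CpG (bp). In the Nod1 interval the ratio falls to 0.016 and the F1 value to 7.73% at the same CpG, while in Pgd interval 2 most CpGs beyond the first dip have a ratio near 1.

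At Tuba3a the window chr6:125236501-125237000 lies upstream of the gene, with its nearest CpG 456 bp from the start site. B6 animals had 31.1% at the lowest, 41.1% at the median and 47.2% at the highest, and C3 animals had 89.9%, 94.8% and 96.6%. B6C3F1 animals had 43.3%, 56.2% and 59.1%, and C3B6F1 animals 51.7%, 58.8% and 68.3%. Of the 12 F1 animals 11 lay nearer to the B6 mean, and 2 B6C3F1 females (43.3% and 45.1%) lay within the B6 range. The first 4 CpGs held the difference, with 14.5% to 21.9% in B6 and 92.8% to 100% in C3, whereas the last 2 were methylated in both strains (87.5% and 81.5% in B6, 97.9% and 89.3% in C3). Depth in C3 was 0.389 times that in B6 over the window, and 0.0994 times at chr6:125236599. Without CpGs within 10 bp of an SNV, the strain difference of the window was 43.1 points in place of 53.9. The coding exons of Tuba3a resemble those of other alpha-tubulins, and sharing of reads between them was not examined. The window holds no exon.

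Meox1 had intervals of both signs within its gene. Interval 1 (chr11:101739961-101740737) covers the last intron with parts of the exons beside it. Of its 18 CpGs, 5 are in exon 2, 10 in intron 2 and 3 in exon 3, the last. B6 animals had 19.9%, 23.5% and 27.6% at the lowest, median and highest, and C3 animals 74.8%, 77.7% and 85.7%. B6C3F1 animals had 34.7%, 39.1% and 43.7%, and C3B6F1 animals 25.9%, 42.1% and 44.2%, so that a single C3B6F1 female reached into the B6 range. Depth in C3 was 0.524 times that in B6, and 0.128 times at chr11:101740096. The interval held 1 SNV.

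The other intervals of Meox1 were higher in B6. Interval 2 (chr11:101742646-101743012, intron 1, 8 CpGs) had 62.0% ± 1.91 in B6 and 30.4% ± 2.42 in C3, and interval 3 (chr11:101746570-101746887, intron 1, 5 CpGs) had 54.7% ± 6.30 and 24.5% ± 6.85 (SD, n = 6). In neither did the strains overlap. Interval 4 (chr11:101758251-101758549) lies 2563 bp upstream of the start site and had 5 CpGs. Its strains overlapped, with 51.6% to 69.7% in B6 and 32.7% to 54.2% in C3, and none of its windows was called. The depth ratio was 0.906, 0.957 and 0.970 in intervals 2, 3 and 4.

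At Pgd, interval 2 was the longest of the 8. It covers chr4:148523366-148525143 and 41 CpGs, 11 of them beyond the 3′ end, 22 in the last exon (mostly 3′ untranslated region), 3 in exon 12 and 5 in introns. B6 animals had 27.0%, 34.3% and 40.6% at the lowest, median and highest, and C3 animals 70.7%, 73.2% and 77.7%. B6C3F1 animals (46.6%, 50.3% and 54.6%) and C3B6F1 animals (44.3%, 48.9% and 54.0%) overlapped neither strain. Its CpGs were uneven: at chr4:148524419 B6 had 24.2% and C3 90.8%, whereas at chr4:148524632 both were low, at 11.1% and 11.3%. Depth was low in C3 close to the pair of SNVs printed above, with a ratio of 0.480 at chr4:148523803 and 0.157 at chr4:148523880, and 0.917 over the whole interval.

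The remaining intervals of Pgd were short. Interval 1 (chr4:148520521-148520717, 6 CpGs) lies beyond the 3′ end. B6 animals had 18.1% to 37.9% and C3 animals 84.9% to 92.6%, with a depth ratio of 0.313. Interval 3 (chr4:148535426-148535537, 5 CpGs) lies in intron 4 of the 13-exon transcript, where another transcript has an exon, and had 42.4% ± 3.60 in B6 and 64.6% ± 7.53 in C3 (SD, n = 6), with a depth ratio of 1.01. It held no SNV, and the nearest was 446 bp away.

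Low depth in C3 was also found in windows that did not separate the strains. The ratio was below 0.75 in 33 of the 205 windows, 14 of them at Meox1, 9 at Tuba3a, 6 at Pgd and 4 at Nod1, and 3 of the 33 were called between the strains. The other 7 called windows had a ratio of 0.75 or more. Of the windows below 0.75, 9 at Meox1, 3 at Tuba3a, 3 at Pgd and 2 at Nod1 held no listed SNV. The window with the lowest ratio at Tuba3a, chr6:125234001-125234500 with 0.247, had 66.9% in B6 and 70.8% in C3. Over all autosomal windows tested, the ratio was 1.04 at the median, below 0.657 in 5% of windows and below 0.817 in 10%. The share of all windows below 0.75 thus lies between 5% and 10%. Over windows called between the strains it was 0.814 at the median. The source of the low C3 depth was not tested.

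The F1 animals were compared with the midparent in all windows (limma on percent methylation, adjusted p below 0.05 and at least 10 points). Of the members' 205 windows, 2 were called, against 0.0506% of all windows. The Meox1 window chr11:101740001-101740500 had 23.4% ± 4.11 in the F1 animals (SD, n = 12) and a midparent of 43.7%, a departure of -20.3 points (95% interval -24.3 to -16.4, adjusted p = 3.75e-06). The Tuba3a window had 55.9% ± 7.05 and a midparent of 67.3%, a departure of -11.3 points (-15.1 to -7.57, adjusted p = 0.00438). Both departures were toward B6. Another window, chr4:148524001-148524500 in the last exon of Pgd, had 41.0% ± 5.07 and a midparent of 50.9%, and passed the adjusted p of limma (0.00178) with -9.89 points, just short of 10. The Nod1 window chr6:54904501-54905000 departed by -6.19 points (-9.90 to -2.48, adjusted p = 0.316). F1 means lay on the B6 side of the midparent in 9 of the 10 windows called between strains, and on all autosomes in 5647 of 7201. Of those 7201 windows, 5.65% were called against the midparent.

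Since the strains were read unequally, the F1 animals were also compared with a depth-weighted midparent. In it each strain counts in proportion to its reads in the window, scaled to the autosomal total of the strain. None of the 205 windows was then called by limma, against 0.029% of all windows called. Of the 205, 14 had an unadjusted p below 0.05 in limma. No share of all windows at that unadjusted level is given, here or for the comparisons below. In the Meox1 window the departure was -5.27 points (95% interval -9.46 to -1.09, adjusted p = 0.610) and in the Tuba3a window 0.551 points (-3.37 to 4.47, adjusted p = 0.983). In the Nod1 window it was 3.96 points (0.195 to 7.72, adjusted p = 0.708), now toward C3. The Pgd window chr4:148524001-148524500, with a depth ratio of 0.889, kept a departure of -8.48 points (-11.5 to -5.45, adjusted p = 0.0142), past the p threshold and short of the minimum difference. Its depth in F1 animals was 1.00 times that in B6. F1 means lay on the B6 side of the depth-weighted midparent in 7 of the 10 windows called between strains and in 4371 of the 7201 on all autosomes, of which 1.69% were called.

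Depth in the F1 animals was examined as well. If each chromosome set were read in F1 animals as it was in its own strain, F1 depth relative to B6 would be 0.813 in the Nod1 interval, 0.694 in the Tuba3a window, 0.762 in Meox1 interval 1 and 0.656 in Pgd interval 1. The measured values were 0.809, 0.695, 0.740 and 0.616. The gap was wider in Meox1 interval 4, with 0.883 measured and 0.985 from the strains, and in Meox1 interval 2, with 0.899 and 0.953. Interval by interval, F1 animals were -12.0 points from the midparent in Meox1 interval 1 and -14.4 points in Pgd interval 1, with 12 of 12 animals below it in each. From the depth-weighted midparent they were -3.41 and 0.589 points. In the 3 intervals with a depth ratio near 1 (Meox1 intervals 3 and 4 and Pgd interval 3), the departure from the midparent was 0.166, 0.172 and 0.0273 points. Pgd interval 2, with a depth ratio of 0.917, was -4.26 points from the midparent and -3.39 points from the depth-weighted one, with 10 of 12 F1 animals below each. Its F1 depth was 0.998 times that of B6, against 0.959 from the strains. Single CpGs of Pgd interval 2 with a ratio near 1 departed both ways from the midparent. The departure was -13.9 points at chr4:148524419 (ratio 0.964) and 16.4 points at chr4:148524921 (1.03). Depth weighting brought the expectation nearer to F1 at 23 of its 41 CpGs. This held for 16 of 18 CpGs in Meox1 interval 1, 7 of 8 in Meox1 interval 2 and 6 of 10 at Nod1. It held for 6 of 6 in Pgd interval 1, 5 of 6 in the Tuba3a window, 3 of 5 in Pgd interval 3 and 2 of 5 in each of Meox1 intervals 3 and 4. Meox1 interval 2 stood 5.83 points above its midparent, that is, toward B6, and 5.04 above the depth-weighted one, with 10 of 12 F1 animals above it.

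**Figure D4:**
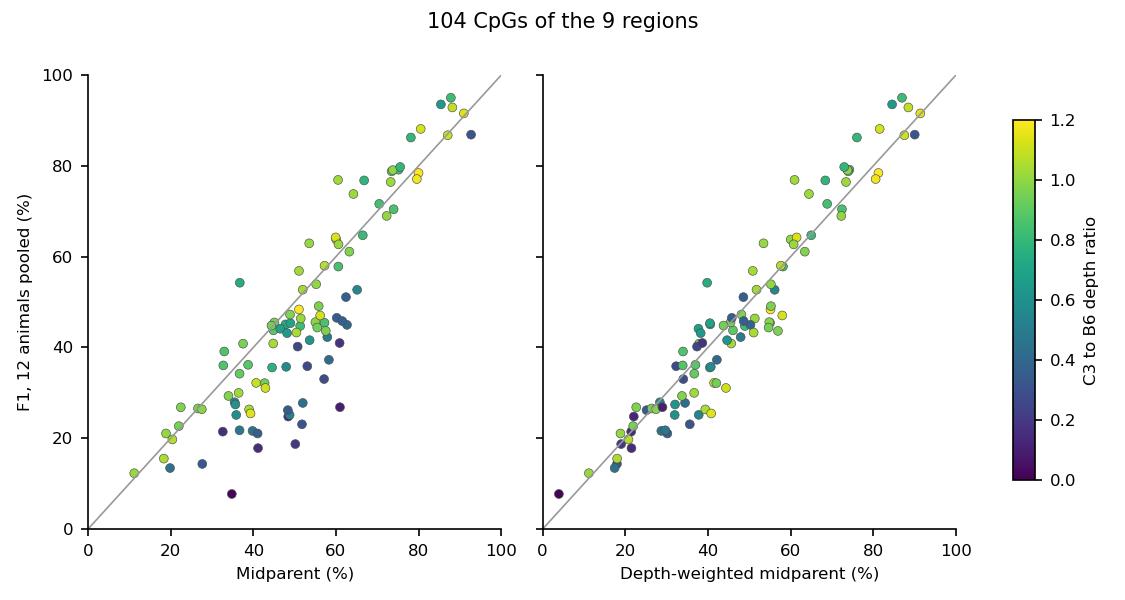
Percent methylation of the 12 F1 animals pooled (vertical axis) at each of the 104 CpGs of the 9 regions, against the midparent (left) and the depth-weighted midparent (right, both in percent); the line marks equality and the colour the ratio of C3 to B6 depth. The CpG of lowest ratio in the Tuba3a window (0.0994) lies at -34.1 points from the line on the left and at -2.14 points on the right, while the CpG of highest ratio there (0.648) lies above the line in both. A CpG of Pgd interval 2 with a ratio of 1.03 lies 16.4 points above the line on the left and 15.9 on the right.

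The direction of the cross was compared next. No window was called by limma between B6C3F1 and C3B6F1, against 0.000824% of all windows called. At an unadjusted p below 0.05 in limma there were 15 of 205, with no share of all windows given for that level. In exact permutation tests of the 9 regions (two-sided, 6 against 6 animals, smallest possible p 0.00216, not adjusted), the Tuba3a window had the largest difference, -5.66 points (53.1% ± 7.11 in B6C3F1 and 58.8% ± 6.27 in C3B6F1, p = 0.184). In the Nod1 interval it was -2.25 points (exact p = 0.478), and in Pgd interval 2 it was 1.76 points (exact p = 0.372).

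Sex was examined in the F1 animals and, separately, in the strains. No window of the loci was called by limma between F1 males and F1 females (0.0511% of all windows called) or between sires and dams (0.104%). At an unadjusted p below 0.05 in limma there were 15 and 14, with no share of all windows given for that level. Of the windows called on all autosomes, males were higher in 52 of 744 between F1 sexes. Sires were higher in 520 of 1518 between sires and dams. Exact permutation tests of single regions gave 3 values of p under 0.05 between F1 males and F1 females. The Tuba3a window had 60.7% ± 4.53 in males and 51.2% ± 5.84 in females (SD, n = 6, exact p = 0.00866). Pgd interval 2 had 51.7% ± 2.54 and 47.4% ± 2.69 (exact p = 0.0281), and Meox1 interval 2 had 49.0% ± 2.99 and 55.0% ± 5.49 (exact p = 0.0411). The Tuba3a difference stayed at p of 0.0195 or less without any single F1 animal, whereas p rose to 0.0541 at most in Pgd interval 2 (without 6 of the 12 animals) and to 0.0844 at most in Meox1 interval 2 (without 8 of the 12). In total 36 exact tests were run on these regions, 4 for each, and no p was adjusted for that number.

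Pgd intervals 2 and 3 were higher in males in all 4 groups. Interval 3 was 5.85 points higher in sires than in dams (exact permutation test within strains, p = 0.085), and the values that follow are of interval 2. In B6, males had 38.3% ± 2.05 and females 29.2% ± 2.50, and in C3 they had 76.7% ± 1.58 and 71.1% ± 0.384. Among B6C3F1 animals, males had 52.7% ± 1.80 and females 48.2% ± 1.46, and among C3B6F1 animals 50.6% ± 3.10 and 46.7% ± 3.80 (SD, n = 3 throughout). In both strains and in B6C3F1 the sexes did not overlap. Sires were 7.36 points above dams, with p = 0.005 in an exact permutation test within strains, the smallest it can give. This test was chosen after these values were seen. Among the windows of interval 2, chr4:148524001-148524500 was 8.30 points higher in sires (limma, adjusted p = 0.0151), under the 20-point minimum. In the window chr4:148521501-148522000, beyond the 3′ end, sires minus dams was -5.59 points (limma, adjusted p = 0.0373). In the Tuba3a window, sires were 1.24 points above dams (exact permutation p = 0.645). Whether the difference between the sexes itself differed between strains and F1 animals was not tested. Since all strain animals had bred and the dams had borne litters, sex and reproductive history cannot be told apart in the strains.

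Dams and their virgin F1 daughters differed in no called window (limma, 0.0198% of all windows called). At an unadjusted p below 0.05 in limma there were 22 of 205, a level for which no share of all windows is given. The Tuba3a window (15.5 points, adjusted p = 1.39e-06) and the Meox1 window chr11:101740001-101740500 (19.1 points, adjusted p = 0.0489) passed the p threshold and missed the 20-point minimum. The Tuba3a window chr6:125230001-125230500 did so with 8.86 points (adjusted p = 0.0184). In exact permutation tests of the same comparison, in which the strain difference among the dams is part of the spread, p was 0.216 in the Tuba3a window (15.5 points), the lowest of the 9 regions, and 0.392 in Meox1 interval 1 (11.2 points). The dams are of both strains, so this comparison includes the departure of F1 animals from the mean of the strains. It was made on log2 ratios, on which the mean of unlike strains is not the mean of their percentages.

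SNVs were listed at 1.84 per kb at Tuba3a, 1.50 at Pgd, 1.33 at Meox1 and 0.830 at Nod1, with 1.14 per kb over the autosomes. Of the 10 windows called between strains, 4 had at least 1 SNV, against 22.1% of all tested windows. Among the tested windows of the loci themselves, called or not, 16 of 49 at Meox1 and 10 of 67 at Nod1 had one. At Pgd it was 19 of 49 and at Tuba3a 18 of 40. The intervals held 0 to 4 SNVs, and the Tuba3a window 6. In the coding sequences, all 5 SNVs of Meox1 and all 6 of Tuba3a were synonymous, and Nod1 had none. Pgd had 1, C148528012G, which changes a glycine to alanine (G357A) and lies outside the intervals.

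The regions were searched on both strands for the cores of motifs bound by liver transcription factors. These were TGTTTAC and TGTTTGC (forkhead), AAAGTCCA (HNF4), ATTGAT and ATCGAT (HNF6), TTGCGCAA and TTGCACAA (CEBP), TTGGCA (NFI) and CACGTG (E-box). In mm9, TGTTTAC was found in Meox1 intervals 1 and 2 and TGTTTGC in Meox1 interval 3 and Pgd interval 2, and 7.05% and 10.5% of all tested 500-bp windows hold them. ATTGAT was found in Meox1 interval 1 and Pgd interval 2 (17.0% of windows), TTGCACAA in Meox1 interval 1 (1.44%) and CACGTG in Pgd interval 3 (9.11%). TTGGCA was found in Nod1, in Pgd intervals 2 and 3 and in the Tuba3a window (23.6%). The regions ran from 112 bp (Pgd interval 3) to 1778 bp (Pgd interval 2), so these shares of 500-bp windows are not matched to their lengths. An SNV changed a match in 2 regions. T101758470C gave C3 a TGTTTGC in Meox1 interval 4, and A125236542C removed the single TTGGCA of the Tuba3a window in C3. The other SNVs of the regions changed none of these cores. The stretch of Meox1 interval 4 is shown for that change, with the SNV in capitals.
Meox1, upstream, mm9 chr11:101758430-101758509: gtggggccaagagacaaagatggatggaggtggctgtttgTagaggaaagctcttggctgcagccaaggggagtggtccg
Meox1, the same bases in C3: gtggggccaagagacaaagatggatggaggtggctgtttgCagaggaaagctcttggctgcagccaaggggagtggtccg

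Genes of the same pathways or families were examined with the same flanks, as counts of windows called between the strains. The lists were chosen with earlier results of these data known, so their shares describe the lists alone. Of the pentose phosphate genes 4 of 8 had a called window, 12 of 331 windows in all (3.63%, against 0.494% of all windows tested), with C3 higher in 11. The median difference over these windows was 1.93 points, against 1.46 over all windows tested. H6pd, which makes the same kind of substrate in the endoplasmic reticulum, had 6 called windows, of which chr4:149356501-149357000 differed by -34.2 points (B6 minus C3). Pgls, which acts just before Pgd, had 4, and chr8:74127001-74127500 differed by -72.0 points at a depth ratio of 0.862. Tkt and Rpe, enzymes of the later steps, had 1 each, at depth ratios of 0.478 and 0.641. Several called windows of H6pd and of Pgls adjoin each other and are not separate cases. H6pd also lies near Pgd on chromosome 4, with called windows from chr4:149356001, and the Pgd locus ends at chr4:148550880. Whether the calls of these 2 genes are independent was not tested. Listed SNVs numbered 106 at H6pd, 97 at Pgls, 109 at Tkt and 142 at Rpe. Genes of the list without a call had 73 (Tktl2), 0 (Taldo1), 0 (Rpia) and 1 (Shpk). Whether the calls follow the pathway or the density of SNVs was not tested. Of the NOD signalling genes 1 of 12 had a called window: Nfkbia, the inhibitor of NF-kappaB, with -25.1 points in chr12:56588001-56588500, 1 of 632 windows (0.158%). The alpha-tubulins had 3 of 205 windows (1.46%), 2 at Tuba4a (depth ratios of 0.993 and 1.02) and 1 at Tuba3b (0.487). The 8 partners of Meox1 and other genes of the somites had 0 of 444. In these other lists, the called genes Nfkbia, Tuba4a and Tuba3b had 0, 16 and 148 listed SNVs. Their genes without a call ranged from 0 (Nod2 among them) to 434 (Map3k7), with 228 at Pax1. The SNV counts of all lists are not scaled to the length of the loci.

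The windows outside the loci that resembled each locus most were sought by the Euclidean distance over 24 animals. For the Nod1 window these were 2 neighbouring windows near Pdcd2 (distances of 32.7 and 34.3 points) and 1 near Tgif1 (40.3). For the Tuba3a window they were near 3110009E18Rik, Klrb1b and D630045J12Rik (31.3 to 32.2), and for the Meox1 window near Eml1, Ccl27a and Coro2b (34.8 to 38.6). Those like the Pgd window (29.4 to 30.6) were intergenic. Their nearest start sites were of Gm10295, Zfp644 and Gpam, at 479871, 94652 and 37441 bp. The 3 like Meox1 had depth ratios of 0.333 to 0.510 and F1 values of 26.7% to 28.7%. The distance took in the F1 animals, so F1 values near those of the member window come with the choice. Depth ratios were 0.399 to 0.957 in the 3 like Nod1. They were 0.478 to 0.722 in those like Tuba3a and 0.608 to 0.735 in those like Pgd.

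Among facts of the whole series, autosomal counts per animal ranged from 365740739 to 619888157. In these livers the start sites of Alb and Apoa2, genes of the hepatocyte, had medians of 27.0% and 18.7%, whereas that of Serpina1a, a further hepatocyte gene, had 57.9%. Those of Cd3e (T cell) and Sftpc (lung) had 87.5% and 82.8%. No 2 animals of a group shared both counts at more than 1.63% of the CpGs of chromosome 19 with at least 10 reads in both, so none was counted as a repeat of another.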

How the data were processed

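Whole-genome bisulfite sequencing of liver DNA was used for 24 animals. As deposited, each CpG has read counts for the methylated and the unmethylated state, strands together, which the authors obtained from reads aligned with Bismark 0.7.8 and Bowtie 0.12.8 to mm9 after quality filtering, removal of duplicates, clipping and merging of libraries per animal, and kept CpGs present in mm9 and both strains. CpGs lost in either strain are thus not measured. The authors also required the sequenced bases at a site to fit its CpG context in both strains. Some CpGs of both sequences are absent too: in Pgd interval 1, mm9 and C3 each hold 10 and 6 were counted. The 48 count columns all entered, and no other column of per-sample values was present. The FOXA1 samples are not analysed here. The members and gene lists were chosen with earlier results of these data known. Counts were summed in 500-bp windows with at least 5 CpGs and 30 counts in every animal. Windows were tested with limma 3.58.1 (R 4.3.3) on log2 ratios of methylated to unmethylated counts, pseudocount 1, or on percent methylation for midparents, with 8 groups of strain or cross and sex, trended variance and Benjamini-Hochberg adjustment over all windows. The script was also run on simulated data, with changes between the crosses or in all F1 animals and no strain difference. Calls between strains and the depth-weighted midparent were not checked in this way. Named were the 4 members, all their intervals, the 3 nearest windows per locus, and listed related genes with a called window. Intervals had at least 5 CpGs, gaps up to 1000 bp and, per CpG, 5 reads in 3 animals of each strain. The p-values measure the spread between animals. Alternatives were other count minimums, CpG minimums, window offsets, scales, pseudocounts, minimum differences and variance estimates, a replicate block, CpGs near SNVs left out, and each animal left out.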

Additional observations from a re-analysis of the deposited data

Results flagged for a closer look

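In Meox1 interval 1, C3B6F1 female 2 had 25.9% methylation, the lowest of its 6 animals and far from the rest of the group by the gap to its nearest neighbour relative to the range of the group. The other 5 animals had 37.6% to 44.2%. Of 36 groups of 6 animals examined this way 1 stood out, and chance alone marks about 1 group in 20. Without this animal, the difference between F1 males and F1 females in the interval was -3.66 points (exact permutation p = 0.0498), against -0.937 points with it.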

How the results depend on the processing

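Between B6 and C3, the 10 called windows became 6 with a minimum of 100 counts and 22 with a minimum difference of 10 points. Between F1 animals and the midparent, the 2 called windows became 0 with 100 counts, since the lowest animal had 41 counts in the Meox1 window and 50 in the Tuba3a window, and 1 without CpGs within 10 bp of an SNV, which leaves the Tuba3a window fewer than 5 CpGs. Against the depth-weighted midparent, 0 became 1 with a minimum of 5 points. Between dams and virgin F1 daughters, 0 became 2 with a minimum of 10 points, and ranged from 0 to 1 when animals were left out in turn, with 1 without C3B6F1 female 1. The number of intervals went from 8 to 4 with 30 points per CpG and to 9 with 20 points in 50% of CpGs, which added chr6:125235433-125235714 at Tuba3a (7 CpGs), with B6 higher, opposite in sign to the Tuba3a window. The exact tests between F1 sexes in Meox1 interval 2 and Pgd interval 2 were lost without single animals, as given above, and 1 was gained each in Pgd interval 1 without C3B6F1 male 1 (4.67 points, exact permutation p = 0.0260) and Pgd interval 3 without B6C3F1 male 1 (7.11 points, exact permutation p = 0.00649).

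With the replicate number as a replicate block, 10 windows were called between B6 and C3, 2 against the midparent and 0 in every other comparison, as without it. The labels do not say that a number marks a family, so the numbers were not taken as pairs. Deviations of same-numbered animals of different groups correlated with r from -0.0133 to 0.0681 (median 0.00393). For animals of other numbers r was -0.0388 to 0.0222 (median -0.00237). Of 24 animals, 15 correlated best with one of their own number, although most candidates had another number. Likeness by number was thus somewhat higher, and its source was not tested.

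Reads per CpG and animal limit these values, with 7.86 in C3 in Pgd interval 1 and 10.4 in the Tuba3a window.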
